A study of Mus musculus with 10 samples.

Results

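The 29 genes described here make cholesterol or control, store and move it, and they were followed as transcripts in phagocytes of mouse Peyer's patches and in blood cells with high CD115. They were taken as a named list out of the 32285 genes of the matrices: 18 enzymes of cholesterol synthesis, 2 genes of carbon supply and of the isoprenoid branch, 6 genes of sterol control and 3 genes of sterol transport and storage. LysoDCs, the lysozyme-expressing phagocytes of Peyer's patches, were sorted into follicular, immature, intermediate and mature cells. The same organ gave immature and maturing cDC2s, the type 2 lineage of conventional dendritic cells. Blood gave Ly6C+ monocytes, CD43+ monocytes and CD115-high cells with neither marker, called DN blood cells here. Each sorted population carried hashtags, antibodies with a DNA barcode, and the messenger RNA of each single cell was counted as unique molecules (UMIs).

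Every donor was a female C57BL/6Rj mouse. Blood donors had been given clodronate-loaded liposomes, which deplete phagocytes, 9 days before, so that all blood populations come from treated mice. The Peyer's patch donors had no treatment, and organ and treatment cannot be told apart in any comparison of LysoDCs or cDC2s with blood. Dataset 1 pooled the Peyer's patches of 30 mice and the blood of 20, tagged the cells after sorting and ran 9 populations in 1 messenger RNA library. Dataset 2 pooled 20 and 18 mice, tagged the cells before sorting and ran 4 messenger RNA libraries, and it has no cDC2s. According to the labels its blood populations were loaded separately, and a difference between them is at the same time a difference between libraries. Its 4 LysoDC hashtags are not assigned to gates, and its CCR2+ and CCR2- DN cells share a hashtag, so each was kept as 1 population. The LysoDC hashtags gave 4, 213, 321 and 143 of the cells used, so 1 of them is almost missing from the LysoDCs of dataset 2.

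Cholesterol is built from acetyl-CoA. The first enzymes make mevalonate and turn it into isoprenoid units and farnesyl diphosphate, which also feeds protein prenylation. Squalene synthase commits farnesyl diphosphate to sterols, squalene is closed to lanosterol, and a chain of demethylases, reductases and isomerases ends in cholesterol. The transcription factor SREBP2 (Srebf2) drives most of these enzymes when the endoplasmic reticulum is low in sterol, and it does so together with NF-Y, which binds CCAAT boxes, and Sp1, which binds GC boxes. Scap carries SREBPs to the Golgi for activation, and the Insig proteins hold them back. Macrophages and other phagocytes also take up cholesterol with what they engulf, and they export, esterify or store it.

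Bases before the start of 5 members are printed because their levels separate the populations described below. They come from RefSeq (GRCm38.p6), 5′ to 3′ on the strand of the gene, and bases inside the GENCODE gene were cut off. Capitals mark CCAAT on either strand (CCAAT or ATTGG) and, in Hmgcs1, the letters TCACNCCAC of a sterol regulatory element. Hmgcs1 lies at chr13:119690101-119690350 (plus strand), Mvk at chr5:114444019-114444268 (plus), Sc5d at chr9:42264301-42264550 (minus), Dhcr7 at chr7:143822917-143823144 (plus) and Mylip at chr13:45389492-45389741 (plus).
Hmgcs1: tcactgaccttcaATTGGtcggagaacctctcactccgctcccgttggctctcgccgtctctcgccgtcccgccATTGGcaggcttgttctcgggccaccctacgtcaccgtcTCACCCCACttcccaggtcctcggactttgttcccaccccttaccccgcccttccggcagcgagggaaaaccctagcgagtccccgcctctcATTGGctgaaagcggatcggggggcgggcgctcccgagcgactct
Mvk: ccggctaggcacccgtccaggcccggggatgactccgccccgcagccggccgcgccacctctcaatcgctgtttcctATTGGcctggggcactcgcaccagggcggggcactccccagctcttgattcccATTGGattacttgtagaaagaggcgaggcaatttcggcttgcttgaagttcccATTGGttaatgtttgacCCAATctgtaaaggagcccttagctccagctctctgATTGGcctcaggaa
Sc5d: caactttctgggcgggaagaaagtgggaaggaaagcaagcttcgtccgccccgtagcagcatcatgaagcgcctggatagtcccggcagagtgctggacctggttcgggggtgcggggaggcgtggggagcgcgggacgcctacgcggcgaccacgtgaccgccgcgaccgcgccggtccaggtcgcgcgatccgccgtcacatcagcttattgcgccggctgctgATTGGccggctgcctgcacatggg
Dhcr7: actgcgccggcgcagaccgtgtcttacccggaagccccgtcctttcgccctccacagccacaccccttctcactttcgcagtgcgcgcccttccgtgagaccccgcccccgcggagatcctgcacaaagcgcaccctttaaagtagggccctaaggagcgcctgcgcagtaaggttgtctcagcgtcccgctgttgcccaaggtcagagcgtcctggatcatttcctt
Mylip: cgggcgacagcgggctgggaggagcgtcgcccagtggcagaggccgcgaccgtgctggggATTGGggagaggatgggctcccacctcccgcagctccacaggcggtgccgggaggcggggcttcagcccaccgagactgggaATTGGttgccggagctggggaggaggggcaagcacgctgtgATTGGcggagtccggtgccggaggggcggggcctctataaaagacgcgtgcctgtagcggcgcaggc
The printed stretches hold CCAAT 3 times in Hmgcs1, 5 times in Mvk, 1 time in Sc5d, 0 times in Dhcr7 and 3 times in Mylip. Promoter sequences, 250 bases before to 50 after each listed start, matched 24 of the 29 members, and Fdps, Fdft1, Sqle, Stard4 and Npc1 have no entry. CCAAT was in 22 of these 24 (91.7%), all but Acat2 and Scap, against 41.1% of all 27025 genes and 43.1% of the 8949 matched genes that entered the statistical test. In Dhcr7, which has 3 listed starts, it lay only at a start 7069 bases inside the gene. The GC box GGGCGG, on either strand, was also in 22 of 24 members, against 38.2% of all genes and 68.2% of tested genes. TCACNCCAC was in 1 of 24, against 1.44% of all genes. These matches describe letters in a window, and Mylip, whose levels run opposite to those of the enzymes, holds CCAAT as well.

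After hashtag calling and cell filters, 7217 cells of dataset 1 and 7470 of dataset 2 were used, with 37 cell barcodes present in both matrices. They formed 13 populations of 261 to 4971 cells. Their counts were summed to 2022332 to 28778760 UMIs, and median depths ran from 2312 UMIs per cell in CD43+ monocytes to 14279 in intermediate LysoDCs. Levels are CPM, the UMIs of a gene divided by all UMIs of the summed cells and scaled to 1000000, with exact 95% Poisson intervals that cover counting error only. The labelled types carried their markers. The summed LysoDC list, which includes the monocyte gene Lyz2, was 57839.7 to 79237 CPM in LysoDCs and 4688 to 45106 CPM elsewhere, and the CD43-high monocyte list was 5472 and 6200.2 CPM in CD43+ monocytes and at most 930.2 CPM elsewhere. The cDC2 list did not single out the cDC2 gates, at 885 and 979 CPM there against 1276 and 1844 CPM in DN cells. Erythroid genes summed to 389.9 CPM in DN cells of dataset 1 and 406 CPM in CD43+ monocytes of dataset 2, and to at most 27.4 CPM elsewhere. The stromal and endothelial list was highest in CD43+ monocytes, with 183 CPM in dataset 2, and at most 33.4 CPM outside this type. Most of it was 1 gene, Pecam1, at 99.2 and 175 CPM in CD43+ monocytes of datasets 1 and 2. Col1a1, Col1a2, Col3a1 and Cdh5 were 0 CPM there, so the list as a whole did not mark these cells. C1qa, a complement gene of LysoDCs, was read in the other populations beside the members, since free RNA or a low expression of their own could give it. Its level in blood populations was 5.21% to 6.03% of that in LysoDCs in dataset 1 and 0.404% to 1.08% in dataset 2. In immature and maturing cDC2s it was 326 and 1514 CPM, against 7366 to 10297 CPM in the LysoDC gates. Which of these sources gave it was not tested.

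LysoDCs devoted the most of their transcripts to cholesterol synthesis, monocytes the least. Over the 18 enzymes the sum was 966 CPM in follicular LysoDCs, 1052 CPM in the immature gate, 1143 CPM in the intermediate gate, 1076 CPM in the mature gate and 991 CPM in the LysoDCs of dataset 2. It was 891 CPM in immature and 851 CPM in maturing cDC2s. Ly6C+ monocytes had 413 and 385 CPM in datasets 1 and 2, CD43+ monocytes 403 and 235 CPM, and DN blood cells 664 and 849.8 CPM. The 5 LysoDC populations lay above the 8 others, and DN cells lay between monocytes and LysoDCs in both datasets. With every cell thinned to 1000 UMIs, the order of LysoDCs and cDC2s was not kept: immature cDC2s had 954 CPM, mature LysoDCs 965 CPM and LysoDCs of dataset 2 had 934 CPM. The interval of DN cells of dataset 2 (839 to 861 CPM) was within that of maturing cDC2s (811 to 892 CPM), so these neighbours in the order were not separated by counting error. In both monocyte types the intervals overlapped in dataset 1 (393 to 433 CPM for Ly6C+ and 378 to 429 CPM for CD43+) and were apart in dataset 2 (368 to 402 CPM and 217 to 255 CPM).

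**Figure D1:**
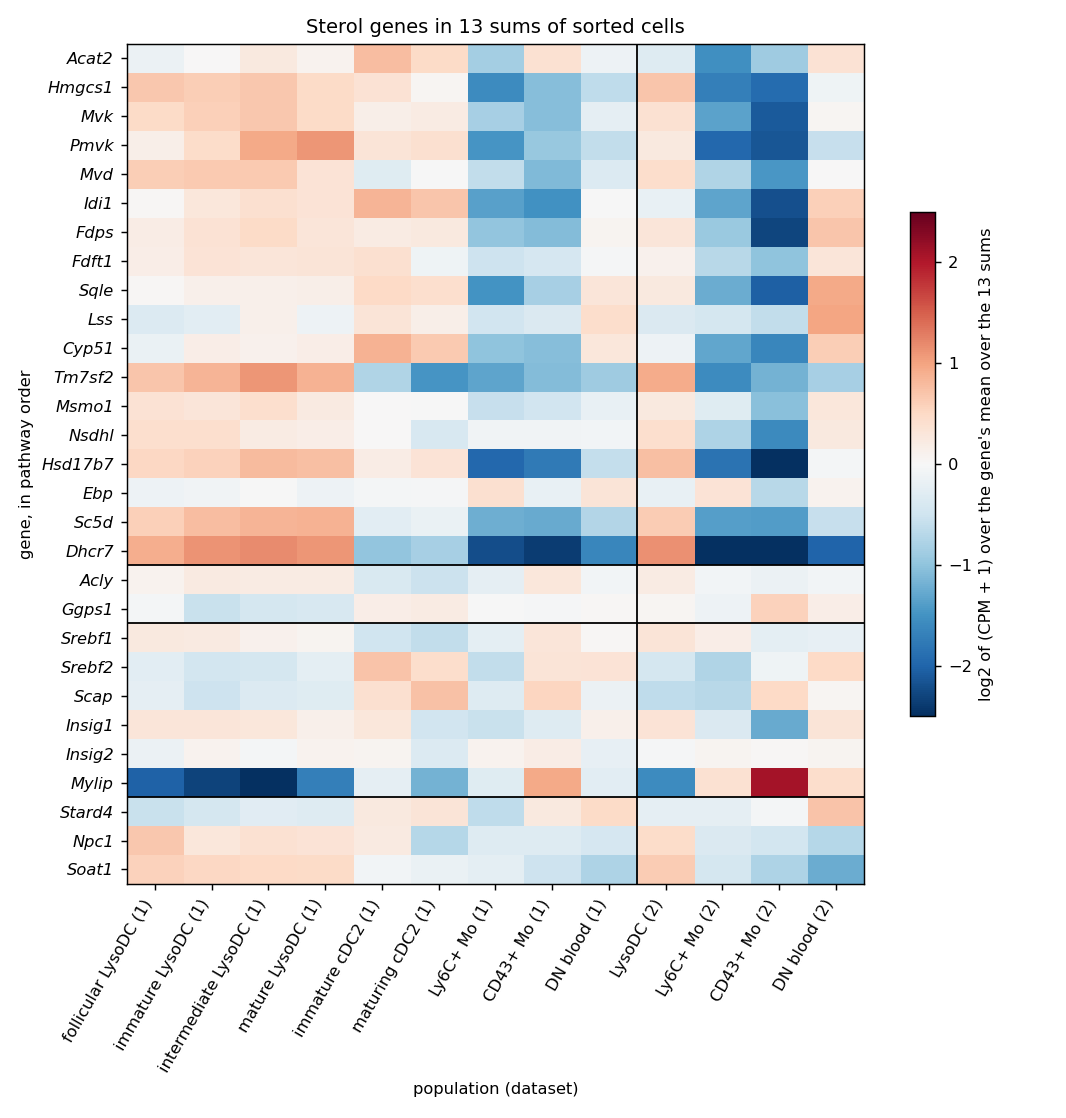
Colour shows log2 of (CPM + 1) of each of the 29 genes (listed in pathway order from the top, with lines between enzymes, supply and branch genes, control genes, and transport and storage genes) relative to its mean over 13 populations (columns, with the dataset in brackets). The scale ends at 2.5 on either side. Most enzyme lines are red in LysoDCs and blue in monocytes, Dhcr7 and Tm7sf2 are reddest in LysoDCs, Lss and Cyp51 in cDC2s or DN cells, and Mylip in CD43+ monocytes.

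Replicated comparisons rest on 8 sums, those of LysoDCs (the 4 gates of dataset 1 together), Ly6C+ monocytes, CD43+ monocytes and DN cells in each dataset. They were fitted in edgeR with the dataset as a block, and p-values were adjusted over the 11458 genes tested. Each population had 2 pools of mice, 1 per dataset. With the block, the p-values measure how far differences between populations vary between the 2 datasets, shared over the 4 populations. They do not measure the spread between animals, and the datasets also differ in libraries and in tagging before or after sorting. The 5 comparisons share sums with each other.

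LysoDCs were compared with both monocyte types, and 19 of the 29 members were higher in LysoDCs and 1 was lower. Across all genes 29.9% were higher and 27.4% lower in this comparison. Of the 18 enzymes 15 were higher, with a median log2 change of 1.82 over all 18 against 0.01 over all genes tested, and Acat2, Lss and Ebp did not pass. Leaving out each of the 8 sums in turn left 16 to 22 members called, and 16 of the 20 members called passed under each alternative that was run.

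The strongest member was Dhcr7, the reductase of the last step of the pathway. It stood at 97.9, 113, 118 and 112 CPM in follicular, immature, intermediate and mature LysoDCs and at 116 CPM in LysoDCs of dataset 2. In datasets 1 and 2 it stood at 10.4 and 6.54 CPM in Ly6C+ and at 9.13 and 6.55 CPM in CD43+ monocytes. The log2 change was 4.01 ± 0.15 (SE, 2 pools per population, edgeR adjusted p = 2.11e-08). In the blood populations of dataset 1 its level was 8.14% to 14.3% of that in LysoDCs, against 5.21% to 6.03% for C1qa, and in dataset 2 it was 5.62% to 10.4% against 0.404% to 1.08%.

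Sc5d, Hsd17b7 and Tm7sf2, of the late steps, were higher too. Sc5d, the desaturase just before Dhcr7, was between 59.5 and 72.6 CPM in the 5 LysoDC populations and between 14.2 and 16.3 CPM in the 4 monocyte populations, a log2 change of 2.29 ± 0.15 (adjusted p = 4.46e-07). Hsd17b7, a keto reductase of sterol demethylation, was 14.0 to 17.1 CPM in LysoDCs against 1.70, 2.08, 1.92 and 0.385 CPM in monocytes, and changed by 3.65 ± 0.33 on the log2 scale (adjusted p = 5.56e-06). Tm7sf2, the sterol reductase that acts after Cyp51, was 16.8 to 22.5 CPM in LysoDCs and 2.69 to 4.15 CPM in monocytes, with a log2 change of 2.70 ± 0.20 (adjusted p = 1.08e-06). The LysoDC gates of dataset 1 came from the same pooled mice. Ebp, the isomerase between Hsd17b7 and Sc5d, did not follow: it was 74.1 to 84.9 CPM in LysoDCs and 52.4 to 112 CPM in monocytes, and its log2 change was 0.08 ± 0.13 (adjusted p = 0.609).

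**Figure D2:**
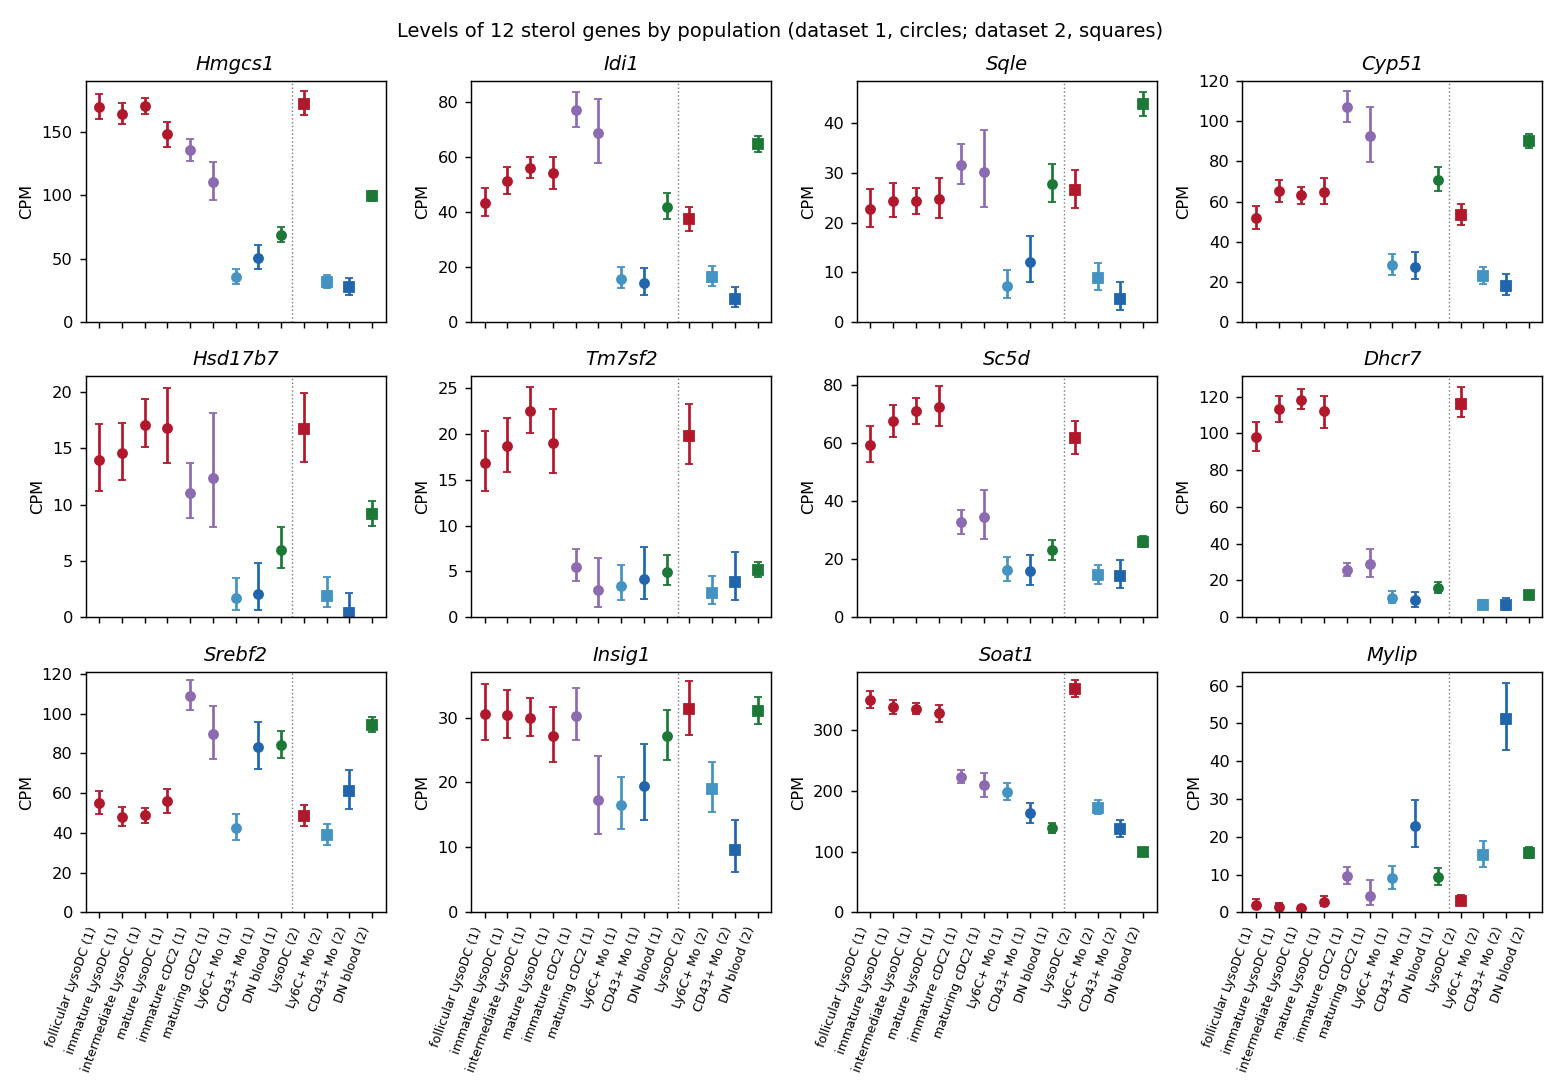
CPM (vertical axis, from 0) of 12 members in the 13 populations (horizontal axis), with exact 95% Poisson intervals as bars. LysoDCs are red, cDC2s purple, Ly6C+ monocytes light blue, CD43+ monocytes dark blue and DN cells green, circles are dataset 1 and squares dataset 2. Dhcr7, Tm7sf2 and Sc5d are highest in LysoDCs, and Srebf2 and Cyp51 in cDC2s and DN cells.

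The mevalonate steps were higher in LysoDCs as well. Hmgcs1, HMG-CoA synthase, was 169.7, 164, 170.3 and 148 CPM in the LysoDC gates of dataset 1 and 172 CPM in dataset 2. Monocytes had 35.2 and 31.7 CPM in the Ly6C+ and 50.6 and 27.3 CPM in the CD43+ type, and the log2 change was 2.41 ± 0.26 (adjusted p = 0.000343). The kinases Mvk and Pmvk and the decarboxylase Mvd changed by 2.17 ± 0.26, 2.32 ± 0.22 and 1.74 ± 0.17 on the log2 scale. Idi1, which interconverts the isoprenoid units, changed by 1.94 ± 0.31, and Fdps, which joins them to farnesyl diphosphate, by 1.82 ± 0.37 (adjusted p = 0.0131). From squalene on, Fdft1, Sqle, Cyp51, Msmo1 and Nsdhl were 2.13- to 3.53-fold higher in LysoDCs. Fdps, Msmo1, Nsdhl and Acly were the 4 members whose call was lost under at least 1 alternative.

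Most control genes did not pass the test. Srebf2 was 48.0 to 55.9 CPM in LysoDCs and 38.9 to 83.4 CPM in monocytes, with a log2 change of 0.06 ± 0.15 (adjusted p = 0.726), and Srebf1, Scap and Insig2 did not pass either. Insig1, the sterol-regulated retention protein, was higher in LysoDCs by 1.11 ± 0.21 (adjusted p = 0.00176), at 27.1 to 31.3 CPM against 9.63 to 19.5 CPM. Mylip, a ubiquitin ligase that removes lipoprotein receptors, was the only member lower in LysoDCs. It stood at 2.04, 1.48, 1.12 and 2.78 CPM in the gates of dataset 1 and at 3.14 CPM in dataset 2, against 8.98 to 51.2 CPM in monocytes, and its log2 change was -2.93 ± 0.20 (adjusted p = 6.14e-07).

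Genes of storage and lysosomal export were higher in LysoDCs. Soat1, which esterifies cholesterol for storage, was 349, 337, 334 and 327 CPM in the gates of dataset 1 and 367 CPM in dataset 2. Its levels in monocytes were 198, 163, 172 and 137 CPM, and the change was 1.26 ± 0.12 on the log2 scale (adjusted p = 8.07e-06). Npc1, which moves cholesterol out of lysosomes, was 53.9 to 70.8 CPM against 32.0 to 35.0 CPM, a log2 change of 1.01 ± 0.12 (adjusted p = 4.35e-05). Stard4, a cytosolic sterol carrier, was not called (log2 change 0.03 ± 0.18, adjusted p = 0.890). Acly, which supplies acetyl-CoA, changed by 0.42 ± 0.14 (adjusted p = 0.0282), and Ggps1 of the geranylgeranyl branch was not called.

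Within blood, DN cells had more transcript of many enzymes than either monocyte type. Against Ly6C+ monocytes 13 members were higher and 1 lower, where 7.37% of all genes were higher and 7.39% lower. Against CD43+ monocytes 18 were higher and 1 lower, where 17.1% and 16.2% of all genes were. Of the 18 enzymes 11 and 15 were higher, with median log2 changes of 1.20 and 1.26 against 0.01 over all genes tested. Sqle, Hsd17b7 and Idi1 had the largest changes among the members called in both comparisons. Sqle, squalene epoxidase, was 27.8 and 43.8 CPM in DN cells of datasets 1 and 2, 7.28 and 8.85 CPM in Ly6C+ monocytes and 12 and 4.62 CPM in CD43+ monocytes. Its log2 changes were 2.17 ± 0.38 (adjusted p = 0.0139) and 2.34 ± 0.42 (adjusted p = 0.00685). Hsd17b7, at 5.99 and 9.14 CPM in DN cells, changed by 2.11 ± 0.40 (adjusted p = 0.00727) and 2.91 ± 0.53 (adjusted p = 0.00202). Its monocyte levels rested on few UMIs, 7 and 10 in Ly6C+ and 5 and 1 in CD43+ monocytes of datasets 1 and 2. Over the alternatives its log2 change against CD43+ monocytes ran from 1.98 to 4.65.

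Cyp51, the lanosterol demethylase, was 70.9 and 90.0 CPM in DN cells, 28.4 and 23.1 CPM in Ly6C+ and 27.4 and 18.1 CPM in CD43+ monocytes. It changed by 1.69 ± 0.22 (adjusted p = 0.00185) and 2.07 ± 0.24 (adjusted p = 0.000248). Idi1 was 42 and 64.7 CPM in DN cells and 8.47 to 16.4 CPM in monocytes. DN cells also had more Srebf2 than Ly6C+ monocytes, 84.3 and 94.4 CPM against 42.7 and 38.9 CPM (log2 change 1.16 ± 0.17, adjusted p = 0.00205). Against CD43+ monocytes, at 83.4 and 61.2 CPM, the change in Srebf2 was 0.54 ± 0.17 (adjusted p = 0.0312). Stard4 was higher than in Ly6C+ monocytes by 1.08 ± 0.21 (adjusted p = 0.00762), and Soat1, at 138 and 98.6 CPM, was lower, with a log2 change of -0.65 ± 0.15 (adjusted p = 0.0152). Dhcr7 in DN cells was 16.0 and 12.1 CPM, above each monocyte type of its dataset, with log2 changes of 0.76 ± 0.19 and 1.06 ± 0.22.

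These calls hung on few sums. Against Ly6C+ monocytes 5 members remained called without the Ly6C+ sum of dataset 1, 3 without that of dataset 2 and 8 without the DN sum of dataset 2, and Cyp51 and Srebf2 alone passed under each alternative. Against CD43+ monocytes 7 members were called without the CD43+ sum of dataset 2, and Mvd, Sqle, Cyp51, Hsd17b7 and Ebp passed under each alternative. Enzyme sums of DN cells and monocytes were farther apart in dataset 2, where DN cells and both monocyte types were in different libraries. In dataset 1, which is 1 library, the enzyme sum of DN cells (646 to 683 CPM) was also apart from those of Ly6C+ (393 to 433 CPM) and CD43+ monocytes (378 to 429 CPM). Of 9 tested cDC2 markers 8 were higher in DN cells than in Ly6C+ monocytes, where 7.37% of all genes were. The list summed to 1276 and 1844 CPM in DN cells, 203 and 166 CPM in Ly6C+ and 273 and 198 CPM in CD43+ monocytes. Most of the DN sums was Cd209a (489 and 747 CPM) and Clec10a (429.9 and 597 CPM), which were 14.5 to 39.1 CPM in cDC2s. Ccr7 was 0.261 and 0.834 CPM in DN cells against 63.1 and 94.9 CPM in cDC2s. The part of these markers in the result was not tested.

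**Figure D3:**
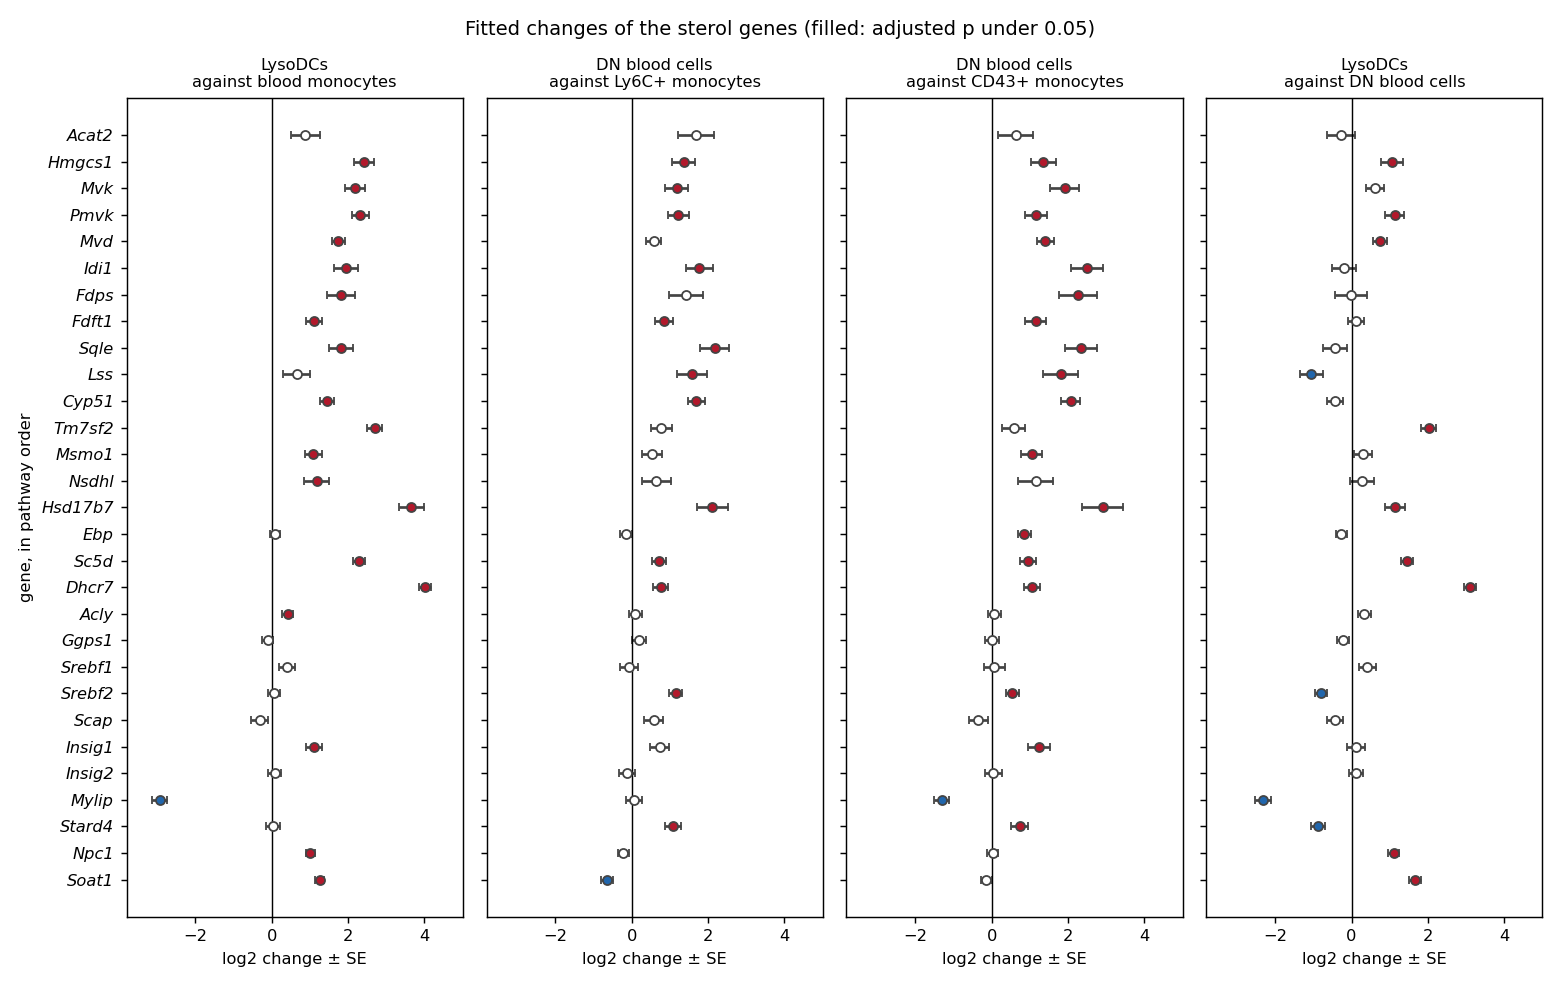
Fitted log2 changes (horizontal axis) of the 29 members (listed in pathway order) in 4 comparisons, with standard errors as bars. Red points were higher and blue points lower in the first-named population at an adjusted p under 0.05, and open points were not called. The comparisons share sums. Dhcr7 and Tm7sf2 stand out to the right against monocytes and against DN cells, whereas Lss, Srebf2 and Stard4 lie to the left in the comparison of LysoDCs with DN cells.

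LysoDCs and DN blood cells, both above monocytes in the enzyme sum, differed in 13 members. Of the 29 members 9 were higher in LysoDCs and 4 lower, where 26.0% of all genes were higher and 26.1% lower, so the members' share of higher calls lies near that of all genes. Dhcr7 was higher by 3.10 ± 0.16 on the log2 scale (adjusted p = 1.53e-07), Tm7sf2 by 2.02 ± 0.19 (adjusted p = 8.91e-06) and Sc5d by 1.46 ± 0.16 (adjusted p = 2.56e-05). Hmgcs1, Pmvk, Mvd and Hsd17b7 were 1.67- to 2.21-fold higher. Among the enzymes not called, Idi1, Fdps, Fdft1, Sqle and Cyp51 had log2 changes of -0.19 ± 0.32, -0.02 ± 0.42, 0.11 ± 0.21, -0.43 ± 0.31 and -0.43 ± 0.20. The late enzymes Msmo1, Nsdhl and Ebp were not called either, with 0.30 ± 0.24, 0.28 ± 0.32 and -0.27 ± 0.14. Lss, which closes squalene to lanosterol, was lower in LysoDCs, with 2.46 to 3.86 CPM against 5.08 and 7.78 CPM (log2 change -1.05 ± 0.31, adjusted p = 0.0145).

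Srebf2 was lower in LysoDCs than in DN cells by 0.79 on the log2 scale (-0.79 ± 0.16, adjusted p = 0.00193), Stard4 by 0.88 (-0.88 ± 0.19, adjusted p = 0.00259) and Mylip by 2.31 (-2.31 ± 0.21, adjusted p = 5.46e-06). Soat1 was 3.15-fold and Npc1 2.14-fold higher. Of the 13 members called, 8 passed under each alternative: Tm7sf2, Sc5d, Dhcr7, Srebf2, Stard4, Npc1, Soat1 and Mylip. Markers of dividing cells moved as well, with 18 of 20 cell cycle genes higher in LysoDCs, and in the comparison with monocytes 19 of 20 were. Summed cell cycle levels were 444 to 692 CPM in LysoDCs, 775 and 976 CPM in cDC2s and 75 to 156 CPM in blood. The fits were repeated on cells with 2 or fewer cell cycle UMIs after thinning to 1000 UMIs, an alternative added after seeing the data. All 20 members called against monocytes and all 13 called against DN cells were called again. Few LysoDCs were left out: 929 of 983 intermediate and 443 of 455 mature cells and 649 of 681 LysoDCs of dataset 2 were kept. With most cells kept, the repeat cannot show how the calls stand without cycling cells. Of the 5 markers of plasmacytoid dendritic cells 3 were higher in LysoDCs than in monocytes, where 29.9% of all genes were. They summed to 1155 to 1602 CPM in LysoDCs and 147 to 442 CPM in blood. Most of the LysoDC sums was 1 gene, Bst2, at 888 to 1370.2 CPM, while Siglech was 0.562 to 16.3 CPM. Ccr9 was 124 to 229.9 CPM in LysoDCs and 1.54 to 10.4 CPM in blood. Tcf4 was 51.4 to 82.3 CPM in LysoDCs and 58.5 to 99.7 CPM in monocytes, so the genes of the list did not all mark LysoDCs. The part of these markers in the results was not tested.

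Between CD43+ and Ly6C+ monocytes few members passed the test. Of the 29 members 3 were higher in CD43+ monocytes and 3 lower, where 13.5% and 14.5% of all genes were. Mylip was 22.8 and 51.2 CPM in CD43+ against 8.98 and 15.2 CPM in Ly6C+ monocytes, a log2 change of 1.37 ± 0.20 (adjusted p = 0.000778). Srebf2 changed by 0.62 ± 0.18 (adjusted p = 0.0263) and Scap by 0.93 ± 0.28 (adjusted p = 0.0310). Ebp was lower in CD43+ monocytes, 74.7 and 52.4 CPM against 112 and 108 CPM (log2 change -1.01 ± 0.16, adjusted p = 0.00111). Mvd and Soat1 were lower by log2 changes of -0.83 ± 0.23 and -0.51 ± 0.15. The count of 6 members fell to 2 without the Ly6C+ sum of either dataset and to 3 without the CD43+ sum of dataset 2, and Ebp alone passed under each alternative. The enzyme sums differed between the datasets, with overlapping intervals in dataset 1 and 235 CPM in CD43+ against 385 CPM in Ly6C+ monocytes in dataset 2. The median log2 change of the enzymes was -0.34, and it was -0.83 without the CD43+ sum of dataset 1 and -0.05 without that of dataset 2.

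The cDC2 gates were sorted in dataset 1 only. The labels name the LysoDC gates in dataset 2 as well, but its cells could not be assigned to them. The following values therefore come from dataset 1, 1 pool each, and have no replicate and no test. A member was counted when it differed at least 1.5-fold and the Poisson intervals of both populations were apart. Immature cDC2s had 8 members above immature LysoDCs and 7 below, where 25.5% and 14.4% of 11132 genes were. Of the enzymes Dhcr7, Tm7sf2, Sc5d and Mvd were counted as lower in cDC2s and Acat2, Idi1 and Cyp51 as higher. Dhcr7 was 25.7 CPM against 113 CPM, a ratio of 0.228 (95% counting interval 0.194 to 0.266), Tm7sf2 had a ratio of 0.296 (0.205 to 0.418) and Sc5d of 0.484 (0.415 to 0.562). Mvd, of the mevalonate steps, was 35.5 against 70.4 CPM, a ratio of 0.505 (0.436 to 0.584). The late enzymes Ebp, Hsd17b7, Msmo1 and Nsdhl were not counted, with ratios of 1.02, 0.757, 0.812 and 0.730. Cyp51 was 107 CPM against 65.1 CPM, a ratio of 1.64 (1.48 to 1.83), and Idi1 had a ratio of 1.5 (1.33 to 1.71). Srebf2 was 109 CPM against 48.0 CPM, a ratio of 2.27 (2.02 to 2.56), and Mylip was 9.56 CPM against 1.48 CPM, a ratio of 6.46 (3.54 to 12.7).

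Maturing cDC2s against mature LysoDCs gave 2 members above, Srebf2 and Scap, and 7 below, among them Dhcr7, Tm7sf2, Sc5d, Npc1 and Soat1, where 13.9% and 11.4% of genes were. In maturing against immature cDC2s 0 members were above and 2 below, where 2.56% and 3.26% of genes were: Insig1 had 17.3 against 30.3 CPM, a ratio of 0.572 (0.388 to 0.819), and Npc1 had 26.7 against 52.0 CPM, a ratio of 0.514 (0.379 to 0.685). Immature cDC2s against DN cells of the same library had 9 members above and 0 below, where 19.9% and 15.0% of genes were, with Hmgcs1 at a ratio of 1.98 (1.78 to 2.20) and Tm7sf2 at 1.11 (0.699 to 1.78).

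Along the LysoDC gates a single member was counted. Pmvk, phosphomevalonate kinase, stood at 84.8 CPM (follicular), 105 CPM (immature), 147 CPM (intermediate) and 164 CPM (mature). The ratio of mature to follicular cells was 1.94 (1.74 to 2.16), that of mature to immature cells 1.57 (1.44 to 1.72) and that of intermediate to follicular cells 1.73 (1.57 to 1.90). In these comparisons 5.24%, 4.13% and 3.20% of genes were counted as higher, and 4.12%, 1.88% and 4.18% as lower. Dhcr7 kept within 97.9 to 118 CPM and Hmgcs1 within 148 to 170.3 CPM. Pmvk was the only member counted in any pair of gates. In the other pairs, 1.39% and 2.16% of genes were counted as higher and lower in immature over follicular cells, 1.43% and 0.949% in intermediate over immature cells, and 2.68% and 0.519% in mature over intermediate cells.

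The make-up of the enzyme transcripts also differed between populations. The 6 mevalonate enzymes from Hmgcs1 to Fdps made up 51.9% to 54.2% of enzyme UMIs in LysoDCs, 54.5% and 55.3% in immature and maturing cDC2s, 39.0% to 44.9% in monocytes and 48.3% and 53.2% in DN cells of datasets 1 and 2. The 11 sterol enzymes from Fdft1 to Dhcr7 made up 44.9% to 47.4% in LysoDCs, 43.8% and 43.3% in cDC2s, 52.2% to 59.2% in monocytes and 50.6% and 45.5% in DN cells. Monocytes thus had the larger summed share in the later enzymes, although the level of most of these was lower there. The share of Ebp alone exceeded that in LysoDCs by more than the 11 enzymes together did. The summed share therefore does not show a shift of the late steps in general, and single late enzymes ran in opposite directions. Dhcr7 was 10.1% to 11.7% of enzyme UMIs in LysoDCs and 1.43% to 3.37% elsewhere, whereas Ebp was 7.19% to 8.09% in LysoDCs, 9.18% and 9.83% in cDC2s, 18.6% to 27.9% in monocytes and 16.1% and 10.6% in DN cells.

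Among DN cells many had no enzyme UMI and some had many, while LysoDCs were more even. Each cell was thinned to 2000 UMIs to compare cells at equal depth, and cells with fewer were left out. In LysoDC populations 16.2% to 21.9% of cells had 0 enzyme UMIs, against 46.8% to 64.3% in monocytes and 39.1% and 38.1% in DN cells of datasets 1 and 2. At the upper end, 6 or more enzyme UMIs were found in 64 of 1653 DN cells of dataset 1 (3.87%, exact 95% interval 2.99% to 4.92%) and in 358 of 4839 of dataset 2 (7.40%, 6.68% to 8.17%). In LysoDC populations 4.32% to 5.99% of cells reached 6, in cDC2s 4.82% and 7.6%, and in monocytes 0.308% to 0.871%. DN cells without an enzyme UMI were more frequent than such LysoDCs in both datasets. Their share of cells at 6 or more was below the LysoDC gates in dataset 1 and above LysoDCs in dataset 2 (5.34%, 3.74% to 7.34%), with intervals that overlap. The value of 6 was chosen after seeing the data.

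The spread of DN cells was also the largest in dataset 2, where the variance of enzyme UMIs per cell was 3.16 times the mean, against 1.72 in LysoDCs, 1.57 in Ly6C+ and 1.27 in CD43+ monocytes. In dataset 1 it was 2.41 in DN cells, 2.19 and 2.41 in immature and maturing cDC2s and 1.47 to 1.76 in LysoDC gates. According to the labels, the DN cells of dataset 2 came from separate libraries of CCR2+ and CCR2- cells, which cannot be told apart here. The part of these libraries in the spread was not tested. In 249 DN cells of dataset 2 the enzyme count was 5 or 6, so 6 is a point in a range and not a border between types. Without thinning, enzymes were 0.0825% of the UMIs of an average DN cell of dataset 2 (median 0.0453%) and 0.0964% of those of a LysoDC (median 0.0829%).

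**Figure D4:**
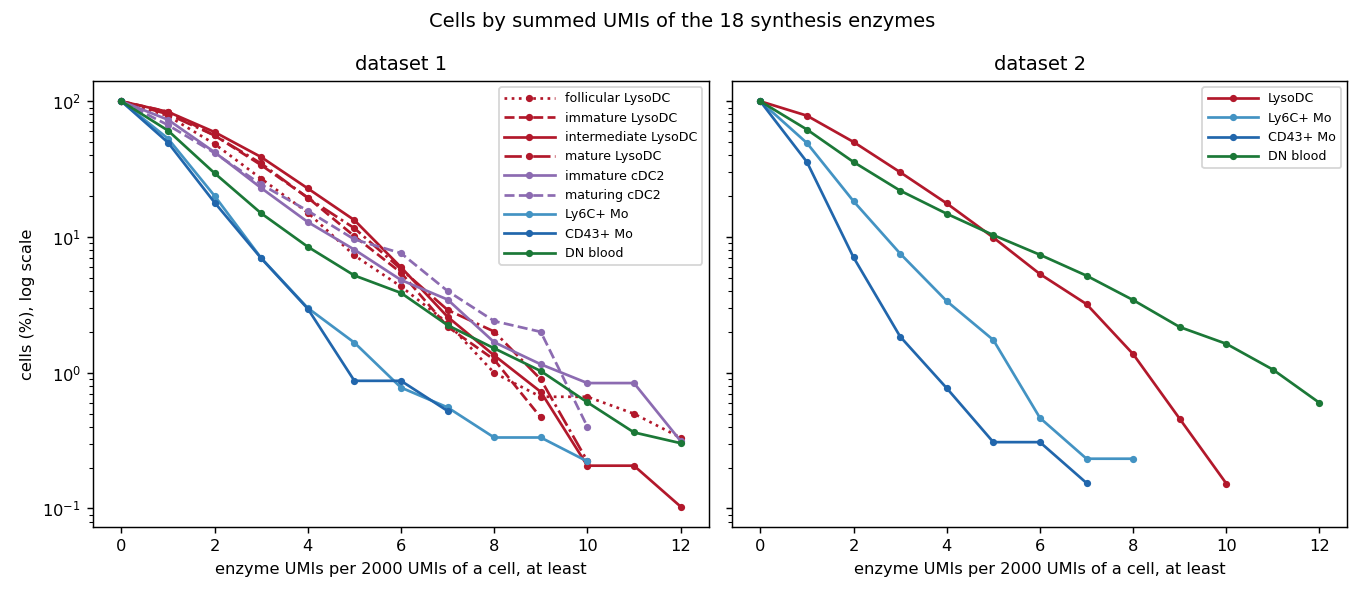
Share of cells (vertical axis, %, log scale) with at least a given number of UMIs of the 18 enzymes (horizontal axis) after each cell was thinned to 2000 UMIs, for dataset 1 (left) and dataset 2 (right). Lines end at 12 or where no cell is left. After the common start of all lines, that of DN cells (green) first lies between LysoDCs (red) and monocytes (blue). It ends above both in dataset 2, where 7.40% of DN cells and 5.34% of LysoDCs had 6 or more.

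To see which members go together in a cell, cells were chosen by 9 of the enzymes (Acat2, Mvk, Mvd, Fdps, Sqle, Cyp51, Msmo1, Hsd17b7 and Sc5d, every other enzyme of the pathway), and the other 20 members were read in them. DN cells with 3 or more such UMIs, 124 in dataset 1 and 569 in dataset 2, were set against DN cells with 0, 1012 and 2702. The ratios compare cells of the same pool, have counting intervals and no test. Hmgcs1 was 273 CPM (dataset 1) and 351 CPM (dataset 2) in the chosen cells and 32.4 and 39.5 CPM in the others, ratios of 8.44 (6.73 to 10.6) and 8.88 (8.05 to 9.80). Idi1 had ratios of 10.4 (7.76 to 14.0) and 10.0 (8.85 to 11.4), and Fdft1, squalene synthase, of 11.3 (7.08 to 18.3) and 8.43 (6.83 to 10.4). Lss and Pmvk lay at 6.12 and 4.70 in dataset 1 and at 9.23 and 5.55 in dataset 2.

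Outside the enzymes, the sterol-regulated members Insig1, Stard4 and Srebf2 were higher in the chosen DN cells of both datasets. Insig1 had ratios of 3.98 (2.72 to 5.76) and 5.30 (4.46 to 6.32), Stard4 of 2.82 (1.79 to 4.35) and 5.04 (4.20 to 6.04), and Srebf2 of 1.81 (1.41 to 2.31) and 1.89 (1.71 to 2.10). For other members the interval held 1 in both datasets: Soat1 at 0.820 and 1.02, Npc1 at 1.05 and 1.16, Insig2 at 0.837 and 0.937, Scap at 0.919 and 0.784 and Ggps1 at 0.714 and 0.946. Ebp, at 1.08 and 1.28 (1.13 to 1.43), lay near 1 among the enzymes. Mylip was lower in the chosen cells of dataset 2, 3.47 against 19.7 CPM, a ratio of 0.176 (0.0901 to 0.312), and in dataset 1 its ratio of 0.481 rested on 3 UMIs (0.0957 to 1.49). Dhcr7 had a ratio of 1.18 (0.565 to 2.25) in dataset 1 and 3.75 (2.84 to 4.94) in dataset 2.

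**Figure D5:**
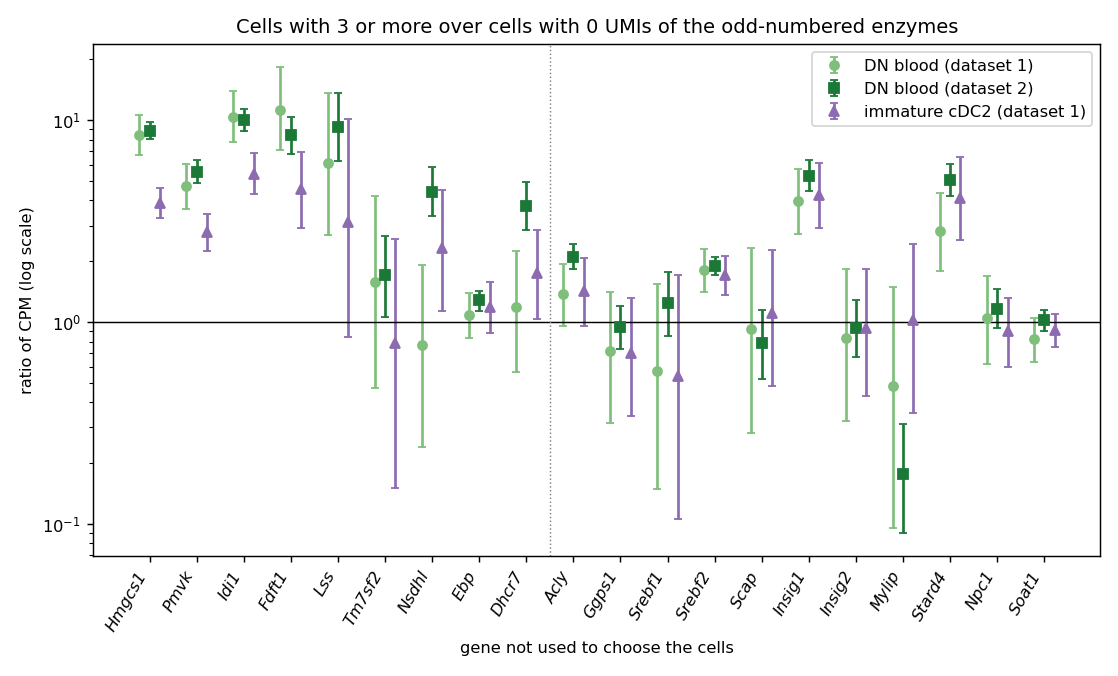
Ratio of CPM (vertical axis, log scale) between cells with 3 or more and cells with 0 thinned UMIs of the 9 enzymes used to choose them, for the 20 members not used (horizontal axis, enzymes left of the dotted line), in DN cells of both datasets and immature cDC2s of dataset 1. Bars are 95% counting intervals. Hmgcs1, Pmvk, Idi1, Fdft1, Insig1, Stard4 and Srebf2 lie above 1 in all 3 populations, while Ebp, Soat1 and Npc1 lie near 1.

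Markers of cell type and cycle were read in the same cells. In dataset 2 the cDC2 list was 1681 against 1887 CPM, the cell cycle list 127 against 135 CPM and the erythroid list 0 against 1.41 CPM, with median depths of 6030 and 5186 UMIs per cell. In dataset 1 the cDC2 list was 1108 against 1301 CPM and the cell cycle list 115 against 137 CPM, whereas erythroid genes were 3.27 against 646 CPM, with median depths of 4787 and 4451 UMIs. Markers of Ly6C-high monocytes summed to 1029 and 712 CPM in the chosen cells of datasets 1 and 2 and to 1727 and 864 CPM in the others. Those of CD43-high monocytes summed to 1150.1 and 579 CPM in the chosen cells and to 813 and 586 CPM in the others. Their part in the ratios was not tested. Genes of fatty acid synthesis, another set of SREBP targets, summed to 449.9 and 492 CPM in the chosen cells and to 174 and 185 CPM in the others. Summed over the 9 enzymes not used to choose cells, the ratio at 2000 UMIs was 3.97 (3.36 to 4.68) and 5.11 (4.70 to 5.56) in DN cells. It was 2.97 and 3.69 in immature and maturing cDC2s, 1.71 to 1.94 in LysoDC populations and 3.23 (2.11 to 4.78) and 2.81 (1.73 to 4.36) in Ly6C+ monocytes of datasets 1 and 2, with 21 and 22 chosen cells. Marker lists differed between chosen and other cells here too. The natural killer cell list was 543 against 0.883 CPM in maturing cDC2s. The cell cycle list was 1341 against 677 CPM in immature and 878 against 1066 CPM in maturing cDC2s. In Ly6C+ monocytes of datasets 1 and 2 the CD43-high list was 1375 and 1893 CPM against 584 and 818 CPM. The Ly6C-high list was 3881 and 3032 CPM against 7178 and 5948 CPM there. The part of these lists was not tested.

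Enzyme levels were also read in cells with cell cycle transcripts. At 2000 UMIs per cell, the enzyme level in cells with 3 or more cell cycle UMIs over that in cells with 0 was 0.974, 0.934, 0.781 and 0.612 in follicular, immature, intermediate and mature LysoDCs and 1.20 in LysoDCs of dataset 2. It was 1.05 and 1.02 in immature and maturing cDC2s and 0.814 in DN cells of dataset 2. The counting interval held 1 in all of these except intermediate (0.648 to 0.935) and mature LysoDCs (0.366 to 0.964). This depended on the depth: at 1000 UMIs per cell the ratio was 0.826 (0.610 to 1.10) in intermediate and 0.691 (0.296 to 1.38) in mature LysoDCs, and 1.46 (1.03 to 2.01) in LysoDCs of dataset 2.

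Neighbouring lipid pathways, taken as 6 lists of 70 genes, held members that were higher and members that were lower. Of 11 tested genes of fatty acid synthesis and desaturation, 7 were higher and 3 lower in LysoDCs than in monocytes (median log2 change 0.75), where 29.9% and 27.4% of all genes were. The desaturases Fads2 and Fads1 changed by 4.35 ± 0.34 and 4.04 ± 0.41, and Mid1ip1, a regulator of acetyl-CoA carboxylase, by -3.45 ± 0.19. In DN cells 6 of the 11 were higher than in Ly6C+ monocytes and 1 lower, where 7.37% and 7.39% of all genes were, led by Fads1 (3.50 ± 0.46), Scd2 (1.31 ± 0.18) and Fasn (1.61 ± 0.23). Of 9 genes of LXR signalling and efflux, 4 were higher and 4 lower in LysoDCs than in monocytes. Nr1h3, which encodes LXR alpha, and the cholesterol exporter Abca1 changed by 3.11 ± 0.15 and 2.57 ± 0.23, while the exporter Abcg1 changed by -1.18 ± 0.14. Against DN cells Nr1h3 and Abca1 were higher in LysoDCs by 3.57 ± 0.19 and 3.92 ± 0.29.

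Of 9 tested genes of endolysosomal sterol release and transfer, 5 were higher and 2 lower in LysoDCs than in monocytes (median log2 change 0.42), and of 7 genes of oxysterol and sterol modification 2 were higher and 5 lower (median -0.75). Lrp1, an uptake receptor, and Scarb1, a lipoprotein receptor, were lower in LysoDCs than in monocytes by log2 changes of -7.90 ± 0.30 and -4.29 ± 0.24, and Cyp27a1, which makes oxysterols, by -4.99 ± 0.20. Tmem97, a regulator of Npc1, was higher by 2.65 ± 0.15. Of 13 genes of SREBP processing and sterol-sensitive degradation, 6 were higher and 5 lower (median log2 change -0.28), and of 13 genes of prenylation, dolichol and coenzyme Q 6 were higher and 2 lower (median 0.15). These counts stand beside the same 29.9% and 27.4% of all genes.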

How the data were processed

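Single cells of sorted populations were sequenced in droplets with their hashtags. They are described as 13 populations, 9 in dataset 1 and 4 in dataset 2, where LysoDCs and DN cells were each kept as 1. The deposited values are counts of UMIs per gene and per hashtag and cell, made with Cell Ranger 6.0.1 per the file headers, while the submitters' processing notes name Cell Ranger 2.0.0 and mm10. Replicate 1 is dataset 1 and replicate 2 is dataset 2. Hashtags were called with HTODemux (Seurat 5.3.0, positive quantile 0.99): 8343 of 11878 and 8516 of 13111 barcodes were singlets, 2422 and 4572 were doublets and were removed, and 1113 and 23 were negative. Cells with at least 1000 UMIs, at least 500 genes and at most 10% mitochondrial UMIs were kept, and their counts were summed per population.

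The 8 replicated sums were fitted with edgeR 4.0.16 (R 4.3.3, TMM, filterByExpr, quasi-likelihood test, dataset as block, 3 residual degrees of freedom) in 5 comparisons, with Benjamini-Hochberg adjustment and a threshold of 0.05. The block pairs sums because the labels place same-numbered pools in the same dataset. The SE of a log2 change is the size of the change divided by the square root of the F statistic of the quasi-likelihood test. Populations of dataset 1 with no replicate were compared by ratios with exact 95% intervals, over genes with at least 20 UMIs in both populations together. Thinning drew UMIs without replacement (Python 3.11.15, numpy 2.4.6, scipy 1.17.1, pandas 2.3.3).

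The members and gene lists were chosen with earlier results of these data known. All 29 members were named, and of each other list up to 3 genes by adjusted p, with the 10 genes most like the enzymes over the 13 sums, of which 1 is not reported here. DESeq2 1.42.0 was an alternative to edgeR, and other normalizations, filters, hashtag calls, depths and left-out sums were tried as well. The script for the fit was tested on simulated data.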

Additional observations from a re-analysis of the deposited data

How the results depend on the processing

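No called member changed direction under any of the 18 alternatives. In the order LysoDCs against monocytes, CD43+ against Ly6C+ monocytes, DN cells against Ly6C+ monocytes, DN cells against CD43+ monocytes and LysoDCs against DN cells, 20, 6, 14, 19 and 13 members were called. Leaving out 1 sum at a time gave 16 to 22, 2 to 8, 3 to 20, 7 to 21 and 9 to 17 members, and 4636 to 6912, 1322 to 3597, 310 to 2253, 1538 to 3910 and 4265 to 6134 genes. Thinning every cell to 1000 UMIs left 3539, 1769, 726, 2178 and 3148 genes, with 3 members for CD43+ against Ly6C+ monocytes and 7 for DN cells against Ly6C+ monocytes. With no replicate block, which the datasets supply, 3 members were called for CD43+ against Ly6C+ monocytes and 963 genes for DN cells against Ly6C+ monocytes. In the comparisons of DN cells, 10 members were called without the block against Ly6C+ monocytes, 9 of them among the 14, and 15 of the 19 against CD43+ monocytes, where Mylip was among those lost (edgeR adjusted p = 0.0866). The causes were not tested, except that thinning leaves fewer UMIs. DESeq2 called 20, 5, 12, 17 and 12 members. Scaling by library totals alone moved the median of all genes to -0.18, 0.21, -0.00, -0.21 and -0.09 and that of the enzymes to 1.63, -0.14, 1.17, 1.03 and 0.23.

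The summed enzymes after thinning to 1000 UMIs were 983, 1125 and 965 CPM in immature, intermediate and mature LysoDCs, 954 and 805 CPM in immature and maturing cDC2s, and 934, 406 and 832 CPM in LysoDCs, Ly6C+ monocytes and DN cells of dataset 2. With a higher hashtag quantile they were 901 CPM in maturing cDC2s and 1033 CPM in LysoDCs of dataset 2, and with k-means clusters, added after seeing the data, 1023 CPM in the latter. The higher quantile gave 1260 LysoDCs in dataset 2 in place of 681. Depth limits the genes of few UMIs: Mvk, Lss, Tm7sf2, Nsdhl and Hsd17b7 had under 10 CPM in every monocyte sum.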

Other observations

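Outside the sterol genes, the transcripts whose levels followed the summed enzymes most closely over the 13 sums were ranked among 5262 genes with a mean of at least 20 CPM. The measure was Pearson's r of log2 (CPM + 1), given as a description, since the sums share libraries and differ in depth. Among the highest were Pigp (0.974), Marveld1 (0.973), Dpp4 (0.965), Got1 (0.961), Nhp2 (0.959), H2-Eb1 (0.958), Tspan33 (0.956), H2-Aa (0.954) and LTO1 (0.953). H2-Aa and H2-Eb1 encode chains of MHC class II. H2-Aa was 6563 to 7242 CPM in LysoDCs, 6803 and 6889 CPM in cDC2s, 6892 and 9983 CPM in DN cells and 273 to 893 CPM in monocytes. Dpp4, a surface peptidase, was 249 to 279.5 CPM in LysoDCs, 218 and 259 CPM in cDC2s, 99.8 and 114 CPM in DN cells and 13.9 to 36.4 CPM in monocytes. Among the members the same measure against the other enzymes was 0.99 for Mvk and Hsd17b7, 0.82 for Dhcr7, 0.10 for Srebf2, 0.06 for Ebp and -0.86 for Mylip.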
